A study of Mus musculus with 4 samples.

Results

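The genes of the major histocompatibility complex (MHC) and of antigen presentation were followed in splenic B cells of ΔleftPAL and ΔIRIS mice, at rest and after activation with LPS. The set was chosen by name in the gene count table: 41 genes whose symbol starts with H2-, and 9 genes added by symbol (Cd74, Ciita, B2m, Tap1, Tap2, Tapbp, Tapbpl, Erap1 and Nlrc5), with names holding -ps left out. This gave 50 members of 41342 named genes. Comparisons were made on the 32 members that averaged 50 counts or more per library, a minimum that 11286 genes of the whole table passed. On chromosome 17 lay 44 of the 50 members and 26 of the 32.

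RNA was measured in 4 libraries, 1 for each genotype and state, so that no difference below has a replicate check and none was tested. ΔleftPAL mice lack the fragment of the IgH 3'RR, the enhancer region at the end of the heavy chain locus, that runs from hs3a through the IRIS (the intervening inverted repeats) to hs1,2. ΔIRIS mice lack the left IRIS, between hs3a and hs1,2, and the study describes hs3a and hs1,2 as put back with hs3a in inverted orientation, so that these mice keep the enhancers but not the original order of the region. Both groups therefore carry a deletion in the 3'RR, and wt libraries were not analysed here. The labels give strain 129 for all samples, and the methods a 129 embryonic stem cell line whose chimeras were mated with C57Bl/6 animals and whose selection cassette was removed by cre. Splenic B cells were enriched by gradient and by removal of CD43+ cells, and were used fresh (resting) or after culture for 48 h in 5 μg/ml LPS, a cell wall component of bacteria that B cells sense through a Toll-like receptor. Each library came from pooled mice, described as 4 animals per pool in the labels and as pooled RNAs of 2 in the methods, and a figure legend of the study gives 3 mice per genotype 8 to 12 weeks of age. Animal, pool and genotype thus cannot be told apart.

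MHC class I molecules, made of a heavy chain and β2-microglobulin, show peptides from inside the cell to CD8+ T cells, while class II molecules, made of an α and a β chain, show peptides from engulfed material to CD4+ T cells. B cells express both, and use class II to obtain T-cell help for antigen that their receptor has taken up. In class II loading, the invariant chain (Cd74) fills the groove during assembly, H2-DM exchanges its remnant for peptide and H2-DO restrains H2-DM. Ciita is the transactivator of the class II genes and Nlrc5 that of the class I genes. Neither binds DNA by itself, and both act through proteins assembled on the X and Y boxes of their target promoters.

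Promoters were read for 21 of the 32 members from RefSeq (GRCm38.p6, 250 bases before to 50 after a start site). The X box was searched by its core GNAAC, the Y box by TGATTGG, the interferon response element by TTTCACTTC and the κB site of class I promoters by GGGATTCCC, on both strands, and a gene was counted if any of its entries held the letters. An X core 15 to 40 bases before a Y box on the same strand was found in 6 of 8 class II genes and in 0 of 9 class I heavy chain genes, against 0.682% of 32851 promoters. The X core alone is so short that 84.8% of all promoters held it. Shares of all promoters were taken per entry and not per gene, so they are not in the same unit as the gene counts. H2-DMa and H2-DMb2 held no X core 15 to 40 bases before a Y box. Both were also lower after LPS, H2-DMa 3.59- and 4.05-fold and H2-DMb2 3.87- and 4.03-fold in ΔleftPAL and ΔIRIS cells. The class II stretches below are shown because these genes moved together on LPS. They are written 5′ to 3′ on the gene's strand, with the X core and the Y box in capitals. They lie at chr17:34287859-34287914 on the minus strand for H2-Aa and, on the plus strand, at chr17:34305766-34305820 for H2-Eb1, chr17:34325533-34325587 for H2-Eb2, chr17:34238808-34238860 for H2-Ob, chr17:34153087-34153142 for H2-DMb1 and chr17:34092293-34092348 for H2-Oa.
H2-Aa: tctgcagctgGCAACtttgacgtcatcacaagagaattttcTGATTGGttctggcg
H2-Eb1: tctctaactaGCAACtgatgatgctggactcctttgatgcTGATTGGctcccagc
H2-Eb2: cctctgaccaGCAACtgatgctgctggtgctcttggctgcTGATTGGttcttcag
H2-Ob: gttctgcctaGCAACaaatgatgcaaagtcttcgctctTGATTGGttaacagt
H2-DMb1: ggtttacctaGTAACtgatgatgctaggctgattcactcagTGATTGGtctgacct
H2-Oa: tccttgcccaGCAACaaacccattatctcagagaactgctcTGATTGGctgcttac

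The Y box letters were in 7 of 8 class II and 7 of 9 class I heavy chain genes, against 7.82% of all promoters. The interferon response letters were in 6 of 9 class I heavy chain genes and 0 of 8 class II genes (0.505% of all promoters), and the κB letters in 4 of 9 and 0 of 8 (0.353%). The 4 class I promoters that hold both are shown because the heavy chains gave a smaller median LPS difference than the class II genes. Of these, H2-Q7 and H2-Q6 had a larger difference than the heavy chain median in both genotypes. For H2-Q6 in ΔleftPAL cells the margin was slight (-1.0241 against -1.0206). The κB site and the interferon response element are in capitals. They lie at chr17:34000424-34000462 on the minus strand for H2-K1 and, on the plus strand, at chr17:35262919-35262957 for H2-D1, chr17:35424673-35424711 for H2-Q6 and chr17:35439018-35439055 for H2-Q7.
H2-K1: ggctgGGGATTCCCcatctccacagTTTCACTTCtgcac
H2-D1: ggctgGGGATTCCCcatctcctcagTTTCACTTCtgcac
H2-Q6: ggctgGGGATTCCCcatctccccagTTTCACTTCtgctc
H2-Q7: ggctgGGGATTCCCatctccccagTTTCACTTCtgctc

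The libraries held 23615496 to 29776108 counts on named genes. Counts were scaled to CPM, the usual depth-corrected unit, with TMM effective library sizes, and 3 counts corresponded to 0.102 to 0.123 CPM. Log2 ratios carry 95% exact Clopper-Pearson intervals, which cover counting error only. A gene is called higher or lower when it was at least 2-fold apart on the log2(CPM + 0.5) scale, which understates the change of low genes. All 7 B-cell markers were detected in each library, summing to 3474 to 4065 CPM at rest and 2561 to 2694 CPM after LPS. Other cells left more RNA in the resting libraries. Erythroid markers summed to 26450 to 37666 CPM at rest and 53.9 to 114 after LPS, macrophage and monocyte markers to 380 to 509 and 15.7 to 21.5, dendritic cell markers to 220 to 657 and 66.3 to 83.9, T-cell markers to 21.1 to 25.3 and 0.102 to 0.186, and NK-cell markers to 1.24 to 3.15 and 0.0682 to 0.148.

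At rest, class II genes and the invariant chain stood among the most abundant transcripts of these cells. On the scale of CPM per kb of exon, Cd74 (ENSMUSG00000024610, chr18:60803848-60812646) had a level of 3484 in ΔleftPAL and 3192 in ΔIRIS cells, rank 18 and 19 of the 11286 genes. H2-Eb1 had 1298 and 1211, H2-Aa 1266 and 1191, and H2-Ab1 976 and 948 CPM per kb, all within rank 36 to 52. B2m, the light chain of class I, had 1024.5 and 1063.5 CPM per kb, level with these chains. The classical class I heavy chains lay lower, H2-K1 at 444 and 342 and H2-D1 at 391 and 317 CPM per kb. Within the loading machinery the order at rest was H2-DMb2 (285 and 247 CPM per kb), H2-Ob (191 and 193), H2-DMa (110.5 and 103.6), H2-Oa (107 and 84.4) and H2-DMb1 (91.0 and 93.2), where H2-Oa and H2-DMb1 changed places between genotypes. Of the transactivators, Ciita had 77.9 and 56.7 CPM per kb, below the class II genes except H2-Eb2 (44.7 and 36.9), and Nlrc5 had 13.4 and 9.47 CPM per kb.

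**Figure D1:**
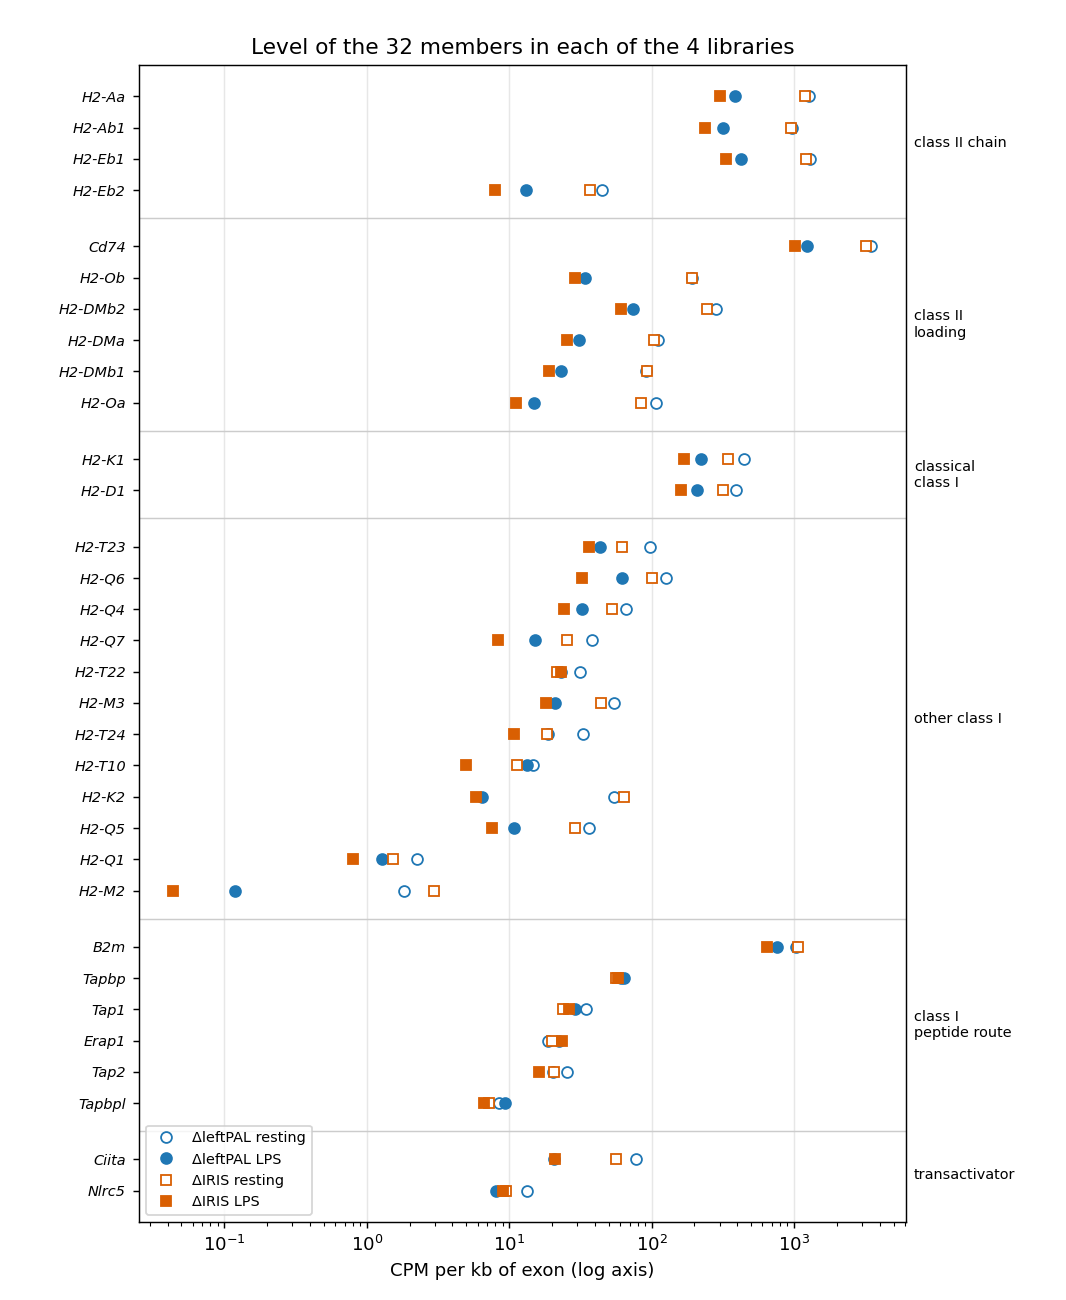
Level of each of the 32 members in CPM per kb of exon on a log axis, grouped by role, with 1 point per library (open, resting; filled, LPS; circles, ΔleftPAL; squares, ΔIRIS). The open and filled points are apart for all class II genes and overlap for most genes of the class I peptide route, and Cd74 is highest in each library.

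The first comparison was LPS against rest within each genotype. Most members had a lower level after LPS, 29 of 32 in ΔleftPAL (45.55% of all genes) and 28 of 32 in ΔIRIS cells (44.94%). In ΔleftPAL cells 20 of 32 members were at least 2-fold lower, where 15.5% of all genes were, and 0 were higher, where 20.1% of all genes were. In ΔIRIS cells 20 of 32 members were lower (17.3% of all genes) and 0 higher (21.6%). In both genotypes 19 members were lower (13.1% of all genes) and 0 higher (17.3%). These 19 were the 10 class II genes, 8 class I heavy chain genes and Ciita. The median log2 difference of the 32 members was -1.24 in ΔleftPAL and -1.35 in ΔIRIS cells, beside 0.12 and 0.13 over all genes. The plot of all genes shows the class II genes left of the 2-fold line, the class I heavy chains on both sides of it and the peptide route near the middle. In bulk RNA, fewer cells of a type and less RNA per cell cannot be told apart.

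**Figure D2:**
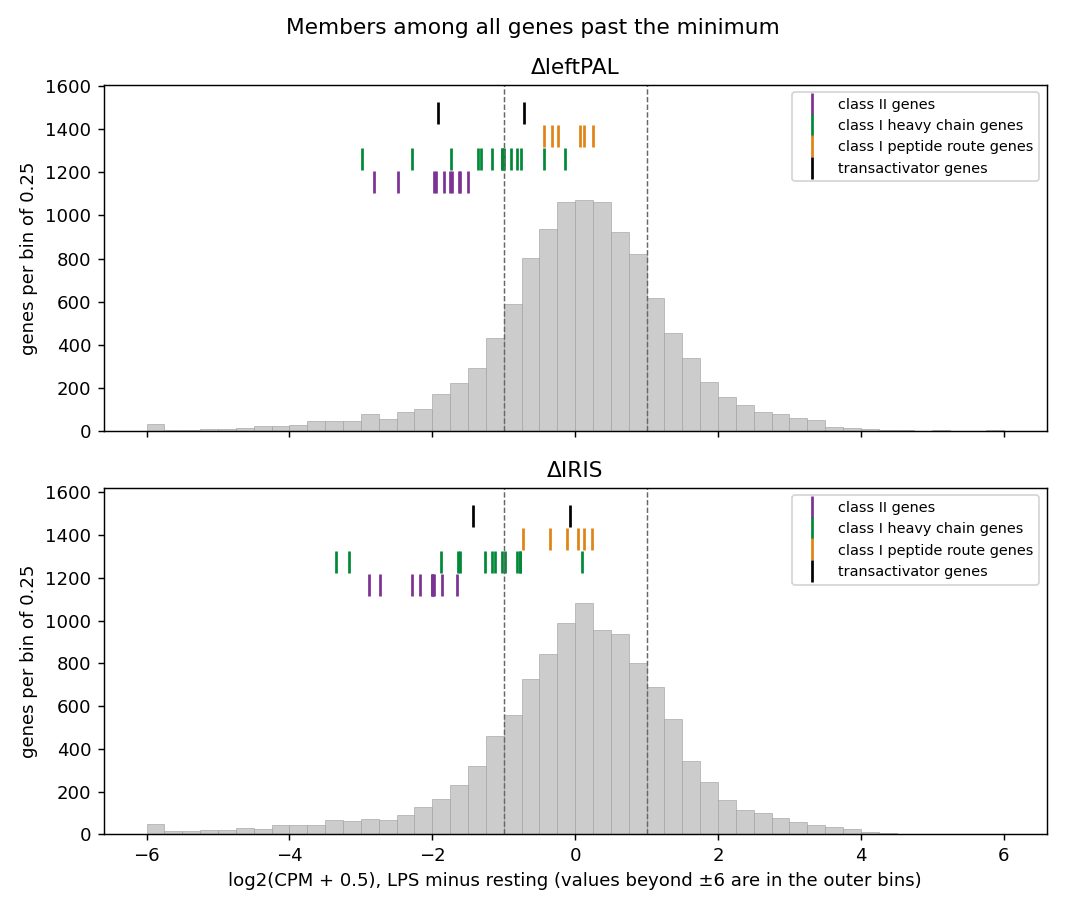
Histogram of the LPS minus resting difference in log2(CPM + 0.5) over the 11286 genes (grey bars, number of genes per bin), for ΔleftPAL above and ΔIRIS below, with coloured ticks for the members by role and dashed lines at 2-fold. The 10 class II genes lie between -1.49 and -2.82 in ΔleftPAL and between -1.66 and -2.88 in ΔIRIS cells.

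The class II chains were 3- to 5-fold lower after LPS. H2-Aa (ENSMUSG00000036594, chr17:34282744-34287827), the α chain of I-A, had 2372 CPM at rest and 717.5 after LPS in ΔleftPAL cells, and 2232 and 567 in ΔIRIS cells. Its log2 ratio was -1.73 (interval -1.75 to -1.70) and -1.98 (interval -2.00 to -1.95), or 3.31- and 3.94-fold lower. H2-Ab1 (ENSMUSG00000073421, chr17:34263209-34269418), the I-A β chain, had 1597 and 522 CPM in ΔleftPAL and 1553 and 390 CPM in ΔIRIS cells. Both I-A chains thus moved by a like amount, H2-Ab1 being 3.06- and 3.98-fold lower. H2-Eb1 (ENSMUSG00000060586, chr17:34305877-34316199), the β chain of I-E, had 1536.5 and 499 CPM in ΔleftPAL and 1434 and 395 CPM in ΔIRIS cells, or 3.08- and 3.63-fold lower. No α chain gene of I-E was among the members, so these values do not show that I-E molecules were made. H2-Eb2, a second E β gene (ENSMUSG00000067341), was much less abundant, at 98.8 and 29.0 CPM in ΔleftPAL and 81.5 and 17.7 CPM in ΔIRIS cells. Its difference of 3.40- and 4.61-fold was no smaller than that of the abundant chains. Summed, the 4 chains took 5604 CPM at rest and 1768 after LPS in ΔleftPAL, and 5300 and 1370 in ΔIRIS cells.

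Among the loading genes the order of the differences differed by role. Cd74 had 4912 CPM at rest and 1743 after LPS in ΔleftPAL, and 4501 and 1426 in ΔIRIS cells. Its difference, 2.82- and 3.16-fold, was the smallest of the 10 class II genes in both genotypes. The H2-DM genes came next. H2-DMa (ENSMUSG00000037649), the DM α chain, had 181 and 50.5 CPM in ΔleftPAL and 170.0 and 42.0 CPM in ΔIRIS cells, or 3.59- and 4.05-fold lower. H2-DMb1 (ENSMUSG00000079547), a DM β chain, had 135 and 34.1 CPM, then 138 and 28.1 CPM, or 3.96- and 4.92-fold lower. H2-DMb2 (ENSMUSG00000037548), the more abundant β chain per length, had 487 and 126 CPM, then 422 and 105 CPM, or 3.87- and 4.03-fold lower.

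The H2-DO chains gave the largest differences of the class II genes. H2-Ob (ENSMUSG00000041538, chr17:34238903-34245907), the DO β chain, had 604 CPM at rest and 107 after LPS in ΔleftPAL cells, and 609 and 91.5 in ΔIRIS cells. Its log2 ratio was -2.49 (interval -2.55 to -2.43) and -2.74 (interval -2.79 to -2.68), or 5.63- and 6.66-fold lower. H2-Oa (ENSMUSG00000024334, chr17:34092340-34095234), the DO α chain, had 141 and 19.6 CPM, then 111 and 14.6 CPM. Its log2 ratio was -2.85 (interval -2.98 to -2.71) and -2.92 (interval -3.07 to -2.78), or 7.20- and 7.58-fold lower, and its intervals did not reach those of any H2-DM gene. Per length, the summed level of H2-Oa and H2-Ob was 61.4% of that of the H2-DM genes at rest in ΔleftPAL and 62.6% in ΔIRIS cells. After LPS it was 38.5% and 38.0%. The RNA of the inhibitor thus took a smaller share beside that of H2-DM after LPS in both genotypes.

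The deposited transcript table separates 2 main Cd74 transcripts of 1218 and 1410 bases, whose difference of 192 bases is the extra exon of the long invariant chain, a thyroglobulin-like domain known to inhibit cysteine proteases. In ΔleftPAL cells the long transcript (ENSMUST00000097563) had 21895 of the kallisto estimated counts at rest and 4880 after LPS, and in ΔIRIS cells 21117 and 3976. The short transcript (ENSMUST00000050487) had 111155 and 48035, then 126651 and 43048. The long form was the minor one in all 4 libraries. Its share of Cd74 estimated counts was 16.5% (interval 16.3 to 16.7%) at rest and 9.22% (8.97 to 9.47%) after LPS in ΔleftPAL cells, and 14.3% (14.1 to 14.5%) and 8.46% (8.21 to 8.71%) in ΔIRIS cells. By TPM, which corrects for length, the shares were 14.2%, 7.87%, 12.3% and 7.21% in the same order. The share was lower after LPS in both genotypes, and the intervals do not cover the error of assigning reads to transcripts.

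**Figure D3:**
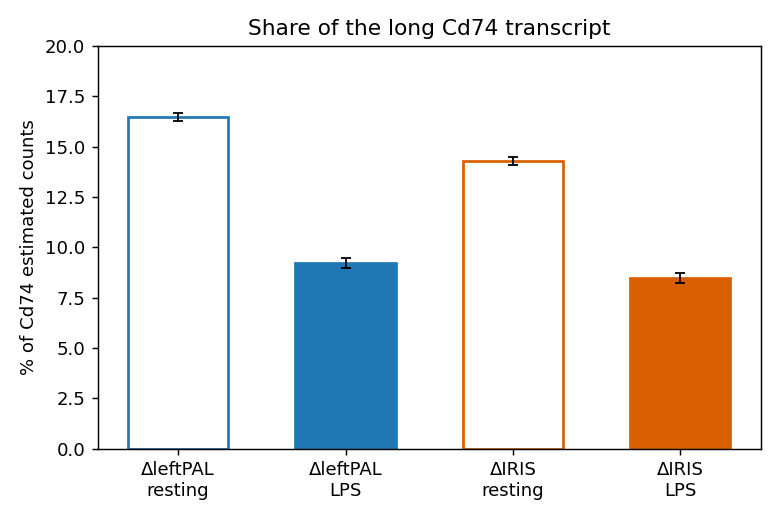
Share of the long Cd74 transcript in all Cd74 estimated counts (vertical axis, percent) in the 4 libraries, with 95% exact intervals that cover counting error only. Both resting bars stand above 14% and both LPS bars below 10%.

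The classical class I heavy chains, and the class I heavy chains at their median, were lower after LPS by less than the class II genes. H2-K1 (ENSMUSG00000061232, chr17:33996017-34000333), a classical heavy chain, had 1157 CPM at rest and 578 after LPS in ΔleftPAL cells, and 892 and 438 in ΔIRIS cells. With 2.00- and 2.04-fold it lay just past the 2-fold line. H2-D1 (ENSMUSG00000073411, chr17:35262730-35267499), the other classical chain, had 1008 and 540 CPM, then 817 and 415 CPM. With 1.87- and 1.97-fold it lay just short of that line, so the call that parts these 2 genes rests on a small difference. With kallisto estimated counts H2-K1 was at -0.85 and -0.83 and not called, and its call in ΔleftPAL cells also ended with a prior of 5 CPM (-0.9955). H2-D1 became called in ΔIRIS cells with total counts (-1.02), DESeq2 size factors (-1.0043) and TMM without immunoglobulin genes (-1.0033), and in both genotypes with kallisto TPM (-1.16 and -1.28). The 14 class I heavy chain genes had a median log2 difference of -1.02 and -1.14, against -1.79 and -2.00 for the 10 class II genes. Per length, H2-Aa, H2-Ab1 and H2-Eb1 summed to 4.24 times the level of H2-K1 and H2-D1 at rest in ΔleftPAL cells. After LPS they summed to 2.61 times that level. In ΔIRIS cells the values were 5.09 and 2.66.

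The other class I genes, often called non-classical, were less uniform. Because they are close copies of each other and the authors counted multi-mapped fragments at their primary alignment, reads may be shared among them and their values are uncertain. H2-T23, which encodes Qa-1 and binds leader peptides of other class I chains, had 281 CPM at rest and 125 after LPS in ΔleftPAL cells, and 179 and 105 in ΔIRIS cells. It was 2.25-fold lower in the first genotype and 1.71-fold in the second. H2-Q6 had 263 and 129 CPM, then 210 and 67.3 CPM, or 2.04- and 3.12-fold lower. H2-Q7, which encodes a Qa-2 chain, had 164 and 65.3 CPM, then 110 and 35.4 CPM, or 2.51- and 3.09-fold lower. H2-Q4 had 171 and 84.4 CPM, then 137 and 62.9 CPM, or 2.03- and 2.18-fold lower. Those Q-region genes were called lower in both genotypes. In ΔleftPAL cells the calls of H2-Q6 and H2-Q4 ended with kallisto estimated counts (-0.82 and -0.90) and with a prior of 5 CPM (-0.9993 and -0.98), and that of H2-Q4 in ΔIRIS cells ended with kallisto estimated counts (-0.99).

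H2-M3, which presents formylated peptides, had 77.9 CPM at rest and 30.2 after LPS in ΔleftPAL cells, and 63.2 and 26.0 in ΔIRIS cells, or 2.58- and 2.43-fold lower. H2-Q5 was 3.40- and 3.78-fold lower, from 58.2 to 17.1 and from 45.9 to 12.1 CPM. H2-K2, an unprocessed pseudogene beside H2-K1, had 57.1 and 6.79 CPM, then 66.9 and 6.14 CPM, or 8.41- and 10.9-fold lower. Its gene counts were 1.49 times its kallisto estimated counts, so part of its reads may belong to a neighbour. H2-M2 had 69 counts at rest and 5 after LPS in ΔleftPAL, and 133 and 2 in ΔIRIS cells, with log2 ratios of -3.93 (interval -5.60 to -2.64) and -6.07 (interval -9.13 to -4.19). Both of its calls ended with a prior of 5 CPM (-0.59 and -0.92). H2-T22, a ligand of some γδ T-cell receptors, stood apart with 107 and 78.8 CPM in ΔleftPAL and 73.6 and 78.5 CPM in ΔIRIS cells. H2-T24 and H2-Q1 were between 1.72- and 1.93-fold lower in both genotypes and not called. With kallisto TPM the log2 ratio of H2-T24 was -1.12 in ΔleftPAL cells, past the 2-fold line. The value of H2-Q1 depended on the table, since its gene counts were 5.38 times its kallisto estimated counts. In ΔIRIS cells its log2 ratio was -0.95 as counted, -3.19 with kallisto estimated counts and -3.61 with TPM. In ΔleftPAL cells these values were -0.83, -1.002 and -1.36.

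The class I peptide route had no member past 2-fold. B2m had 881 CPM at rest and 649 after LPS in ΔleftPAL, and 915 and 553 in ΔIRIS cells, or 1.36- and 1.65-fold lower. Per length, H2-K1 and H2-D1 together were 81.4% of B2m at rest and 57.1% after LPS in ΔleftPAL, and 61.9% and 51.1% in ΔIRIS cells. Tap1 and Tap2 form the transporter that carries peptides into the endoplasmic reticulum. Tap1 had 189 and 159 CPM in ΔleftPAL and 132 and 144 in ΔIRIS cells. Tap2 had 96.6 and 77.02 CPM, then 78.7 and 61.3 CPM, with log2 ratios of -0.33 and -0.36.

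Tapbp (tapasin), which links the transporter to empty class I molecules, had 201 and 211 CPM in ΔleftPAL and 186 and 191 CPM in ΔIRIS cells. Erap1, the peptidase that trims peptides to fit class I, had 75.5 and 90.1 CPM, then 79.6 and 94.0 CPM. Tapbpl, a tapasin relative that edits peptides, had 20.1 and 21.9 CPM, then 17.03 and 15.7 CPM. Their log2 ratios lay between -0.12 and 0.25, and the sign of each of them turned under at least 1 of the other scalings or tables in at least 1 genotype. Tap1 and Tap2 lie inside the class II region, between H2-DMb1 and H2-Ob. In the authors' gene model H2-DMb1 ends at chr17:34160230, Tap1 runs from 34187553 to 34197225, Tap2 from 34203527 to 34216321, and H2-Ob starts 22.58 kb further on. Both neighbours were at least 3.96-fold lower after LPS, while the log2 ratios of Tap1 and Tap2 lay between -0.36 and 0.12. The immunoproteasome genes Psmb9 and Psmb8 lie in the same interval, the first before Tap1 and the other between Tap1 and Tap2. Psmb8 had 155 and 252 CPM in ΔleftPAL and 105 and 251 CPM in ΔIRIS cells. Tap1 and Psmb9 share 212 bases on opposite strands.

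Ciita (ENSMUSG00000022504, chr16:10488178-10527564) had 409 CPM at rest and 108 after LPS in ΔleftPAL cells, and 298 and 110 in ΔIRIS cells. Its log2 ratio was -1.92 (interval -1.98 to -1.86) and -1.44 (interval -1.50 to -1.38), or 3.78- and 2.71-fold lower. In ΔleftPAL cells this lay among the ratios of the class II genes, and in ΔIRIS cells it was smaller than that of each of them. Nlrc5 (ENSMUSG00000074151) had 102 and 62.1 CPM in ΔleftPAL and 72.4 and 68.9 CPM in ΔIRIS cells, with log2 ratios of -0.72 (interval -0.81 to -0.63) and -0.07 (interval -0.16 to 0.02). The last value was 0.09 with kallisto estimated counts. Both transactivators had a lower level in ΔIRIS than in ΔleftPAL cells at rest.

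Of 13 regulators listed beside the set, 2 were at least 2-fold lower after LPS in each genotype and 0 higher, a lower share near that of all genes (15.5% and 17.3%). They were Irf1, an interferon-induced activator of class I genes, from 133 to 36.5 CPM and from 123 to 29.0 CPM, and Irf2, from 39.4 to 18.9 and from 46.1 to 19.4 CPM. The listed genes of factors that bind the X and Y boxes were not called. The log2 ratios of Rfx5 were -0.99 and -0.82, of Rfxap 0.34 and 0.20, of Rfxank -0.15 and -0.14, of Creb1 -0.21 and 0.12, of Nfya -0.43 and 0.17, of Nfyb 0.57 and 0.74 and of Nfyc 0.37 and 0.19. Of 9 genes of the class II route outside the set, 6 were lower in ΔleftPAL and 7 in ΔIRIS cells, and 0 higher. Ctss, the cathepsin that cleaves the invariant chain in B cells, went from 380 to 161 and from 365 to 133 CPM. March1, a ubiquitin ligase that removes class II from the surface, went from 194 to 29.1 and from 178 to 14.9 CPM, with log2 ratios of -2.73 and -3.58. Ifi30, a thiol reductase of the same compartments, was not called, with -0.07 and 0.04.

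Of 8 genes of the class I route outside the set, 3 were at least 2-fold higher after LPS in ΔleftPAL and 4 in ΔIRIS cells, and 0 lower, where 20.1% and 21.6% of all genes were higher and 15.5% and 17.3% lower. Canx (calnexin), which holds newly made heavy chains, went from 253 to 730 and from 303 to 822 CPM, and Pdia3, a disulphide isomerase of the loading complex, from 87.1 to 248 and from 92.6 to 249 CPM. These chaperones serve many glycoproteins besides class I. Of 3 related presenters past the minimum, 3 were lower in ΔleftPAL and 2 in ΔIRIS cells. Cd1d1, which presents lipids to NKT cells, went from 60.4 to 7.87 and from 39.4 to 5.12 CPM, and Fcgrt, the neonatal Fc receptor heavy chain, from 34.9 to 0.520 and from 36.6 to 0.375 CPM. Over these lists together, 3 of 33 genes were higher and 11 lower in ΔleftPAL cells, and 4 higher and 11 lower in ΔIRIS cells.

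**Figure D4:**
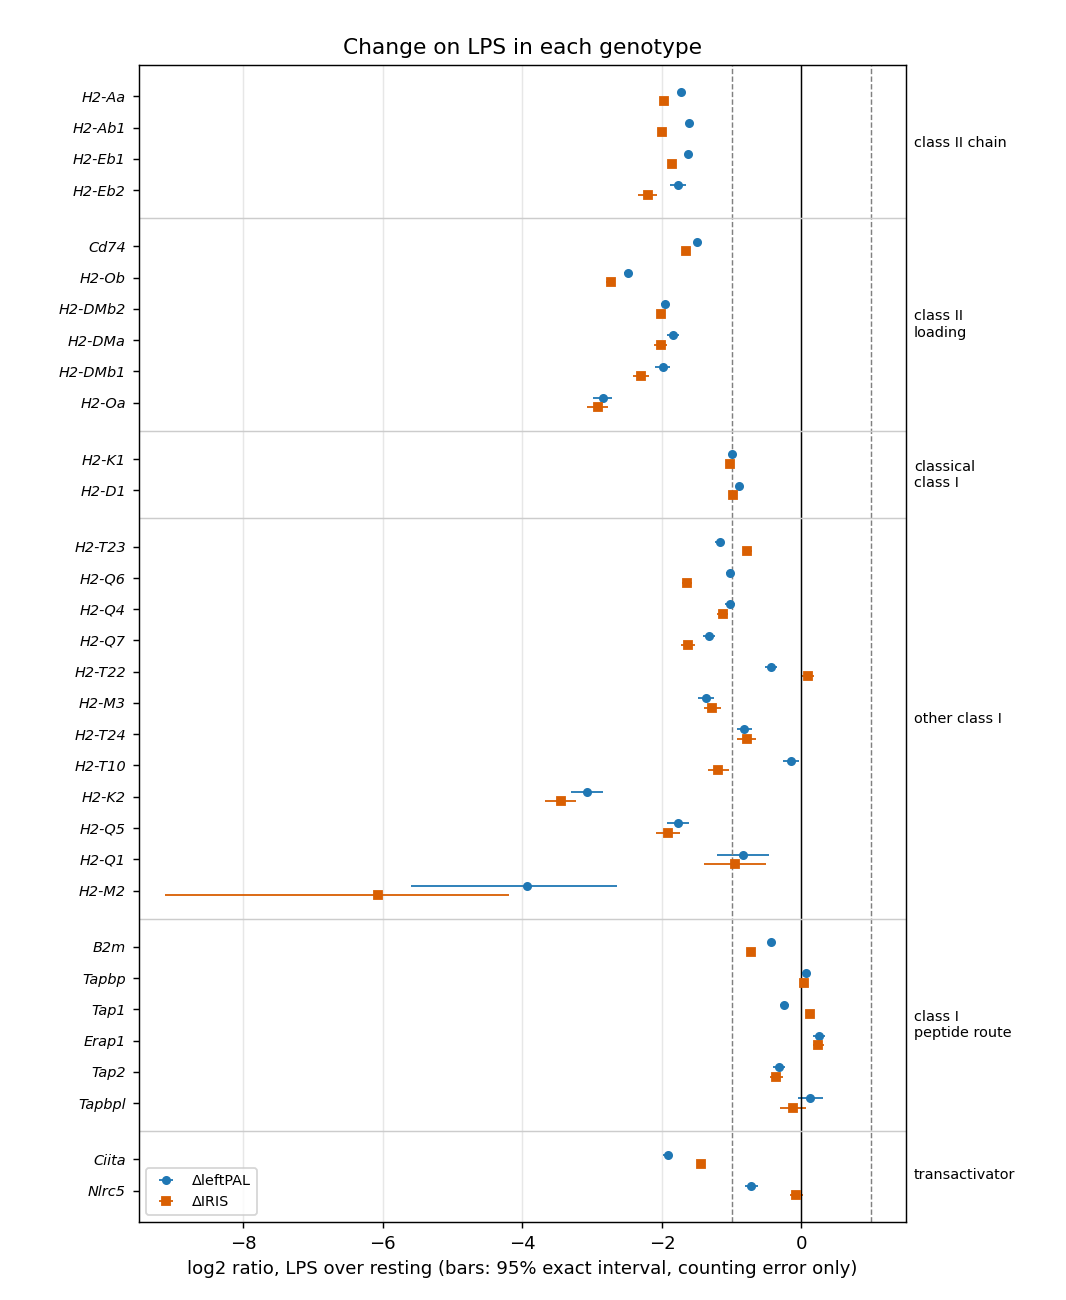
Log2 ratio of LPS over resting for the 32 members in ΔleftPAL (circles) and ΔIRIS (squares), with 95% exact intervals for counting error and dashed lines at 2-fold. All 10 class II genes lie left of -1 in both genotypes, H2-K1 and H2-D1 lie at the line, and the peptide route lies between -0.73 and 0.25.

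Most markers of macrophages, dendritic cells and T cells were lower after LPS, as the class II genes were. Exceptions were Flt3, at 17.8 CPM at rest and 45.3 after LPS in ΔleftPAL and 26.1 and 36.0 in ΔIRIS cells, and Itgam, which was lower in ΔleftPAL (13.1 and 5.20 CPM) and higher in ΔIRIS cells (10.5 and 15.4 CPM). The macrophage and monocyte markers were 24.1- and 23.6-fold lower after LPS as a sum, and without Itgam the other 5 were 34.8- and 80.7-fold lower. Of the 6, Cd14 was at or under 3 counts in each LPS library, and Csf1r was at 8 and 5 counts. The dendritic cell markers were 2.63- and 9.92-fold lower as a sum, with Clec9a at 0 in both LPS libraries. Most of that sum at rest was Ccr7 (149 of 220 and 541 of 657 CPM), which activated B cells also express. Without it the other 7 markers were 1.46- and 3.12-fold lower as a sum. Of what was left after LPS, Flt3 made 45.3 of 48.8 CPM in ΔleftPAL and 36.0 of 37.5 CPM in ΔIRIS cells. These folds thus rest largely on Flt3, and each of the other listed dendritic cell markers was lower after LPS in both genotypes. All splits that leave out 1 marker were made after the values were seen. Macrophages and dendritic cells also carry class II, and their part in the result was not tested. The T-cell markers Cd3e, Cd3g and Cd3d were at 0 in both LPS libraries. The B-cell markers were 1.59- and 1.29-fold lower as a sum, less than the 3.13- and 3.66-fold of the 10 class II genes summed. Plasmablast markers were 2.90- and 1.43-fold higher as a sum, and 3.98- and 3.02-fold higher without Irf4, which made 604 of 897 CPM in resting ΔIRIS cells and was at 392 CPM there after LPS. Sdc1 was also lower after LPS in ΔIRIS cells (17.9 and 13.2 CPM). The part of these markers was not tested either.

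The second comparison was ΔIRIS against ΔleftPAL within each state. By design these genotypes differ in whether hs1,2 and hs3a, inverted in ΔIRIS mice, are present, and pool and genotype cannot be told apart. The differences in the members were small. At rest 0 of 32 members were at least 2-fold higher (1.83% of all genes were) and 0 lower (1.02%). After LPS 0 were higher (0.567%) and 1, H2-T10, was lower (1.41%). Most members nevertheless lay below 0. At rest 26 of 32 members had a lower level in ΔIRIS cells (49.95% of all genes had) and after LPS 29 of 32 had (44.7%), with medians of -0.30 and -0.31, while the medians over all genes were 0.00 and 0.03. Over the other scalings and quantifications, 26 to 28 members lay below 0 at rest (47.3 to 56.5% of all genes) and 27 to 30 after LPS (34.0 to 57.3%).

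At rest the class I heavy chains had a median log2 difference of -0.36, against -0.10 for the class II genes and -0.17 for the class I peptide route. H2-K1 had 1157 CPM in ΔleftPAL and 892 in ΔIRIS cells, a log2 ratio of -0.38 (interval -0.40 to -0.35), and H2-D1 1008 and 817 CPM, a log2 ratio of -0.30 (interval -0.33 to -0.28). The members furthest below 0 at rest were H2-T24, with a log2 ratio of -0.83 (interval -0.94 to -0.72), and H2-T23, with -0.65 (interval -0.70 to -0.60). H2-M2, with 69 and 133 counts, was furthest above 0, with 0.70 (interval 0.27 to 1.14). H2-K2 was at 0.23. In the peptide route Tap1 was at -0.52 (interval -0.58 to -0.45), Tap2 at -0.30, Tapbpl at -0.24, Tapbp at -0.11, B2m at 0.05 (interval 0.03 to 0.08) and Erap1 at 0.08. Nlrc5 was at -0.50 (interval -0.58 to -0.41) and Ciita at -0.46 (interval -0.50 to -0.42). The class II genes ranged from -0.34 to 0.03, and H2-Ob and H2-DMb1 could not be told from 0 at this depth, with intervals of -0.02 to 0.04 and -0.03 to 0.10.

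Of the 8 class I route genes outside the set, 0 were called between genotypes in either state. At rest their log2 ratios were -0.56 for Psmb8, -0.62 for Psmb9, -0.58 for Psmb10, -0.10 for Psme1, -0.16 for Psme2, 0.23 for Calr, 0.26 for Canx and 0.09 for Pdia3. The resting libraries also differed in markers of other cells. Dendritic cell markers were 2.98-fold higher as a sum in ΔIRIS cells, and 1.64-fold higher without Ccr7, and macrophage and monocyte markers were 1.34-fold higher. T-cell markers were 1.20-fold higher as a sum, which rested on Cd4 (11.2 and 17.1 CPM in ΔleftPAL and ΔIRIS cells) and Cd8a (3.44 and 6.95 CPM). The other listed T-cell markers were lower in ΔIRIS cells. Cd3e had 17 and 5 counts, Cd3g 50 and 11, Cd3d 47 and 18, and Trac 44 and 4. Erythroid markers were 1.42-fold lower, and NK-cell markers 2.55-fold lower, at 3.15 CPM in ΔleftPAL and 1.24 in ΔIRIS cells. The B-cell markers themselves were 1.17-fold lower as a sum, but their median log2 difference was -0.05. Furthest below 0 were Cd79b (977 and 618 CPM in ΔleftPAL and ΔIRIS cells) and Cd22 (637 and 489 CPM). Cd79a and Pax5 lay above 0, both at 0.04. Irf4, a factor raised on B-cell activation, had 285 CPM in ΔleftPAL and 604 in ΔIRIS cells. The part of these in the result was not tested.

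After LPS the class II genes differed by more than at rest. All 10 lay below 0, from -0.23 to -0.70 on the log2(CPM + 0.5) scale with a median of -0.31. H2-Aa was 1.27-fold lower in ΔIRIS cells, with a log2 ratio of -0.34 (interval -0.37 to -0.31), H2-Ab1 1.34-fold, with -0.42 (interval -0.46 to -0.38), and Cd74 1.22-fold, with -0.29 (interval -0.31 to -0.27). The Ciita ratio at the same time was 0.02 (interval -0.05 to 0.10), a difference not detectable at this depth, and that of Nlrc5 was 0.15 (interval 0.06 to 0.24). H2-Q6 and H2-Q7 came near the 2-fold line with 1.92- and 1.84-fold lower levels. The LPS ratio of all 10 class II genes and of 25 of the 32 members was lower in ΔIRIS than in ΔleftPAL cells, as it was for 49% of all genes. The difference between genotypes in the LPS response was not tested. Between the same LPS libraries, plasmablast markers were 1.42-fold lower as a sum in ΔIRIS cells, erythroid markers 2.11-fold higher, dendritic cell markers 1.27-fold lower and macrophage and monocyte markers 1.37-fold higher. The last direction was set by Itgam, since without it the other 5 markers were 1.71-fold lower. The part of these markers in the result was not tested.

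**Figure D5:**
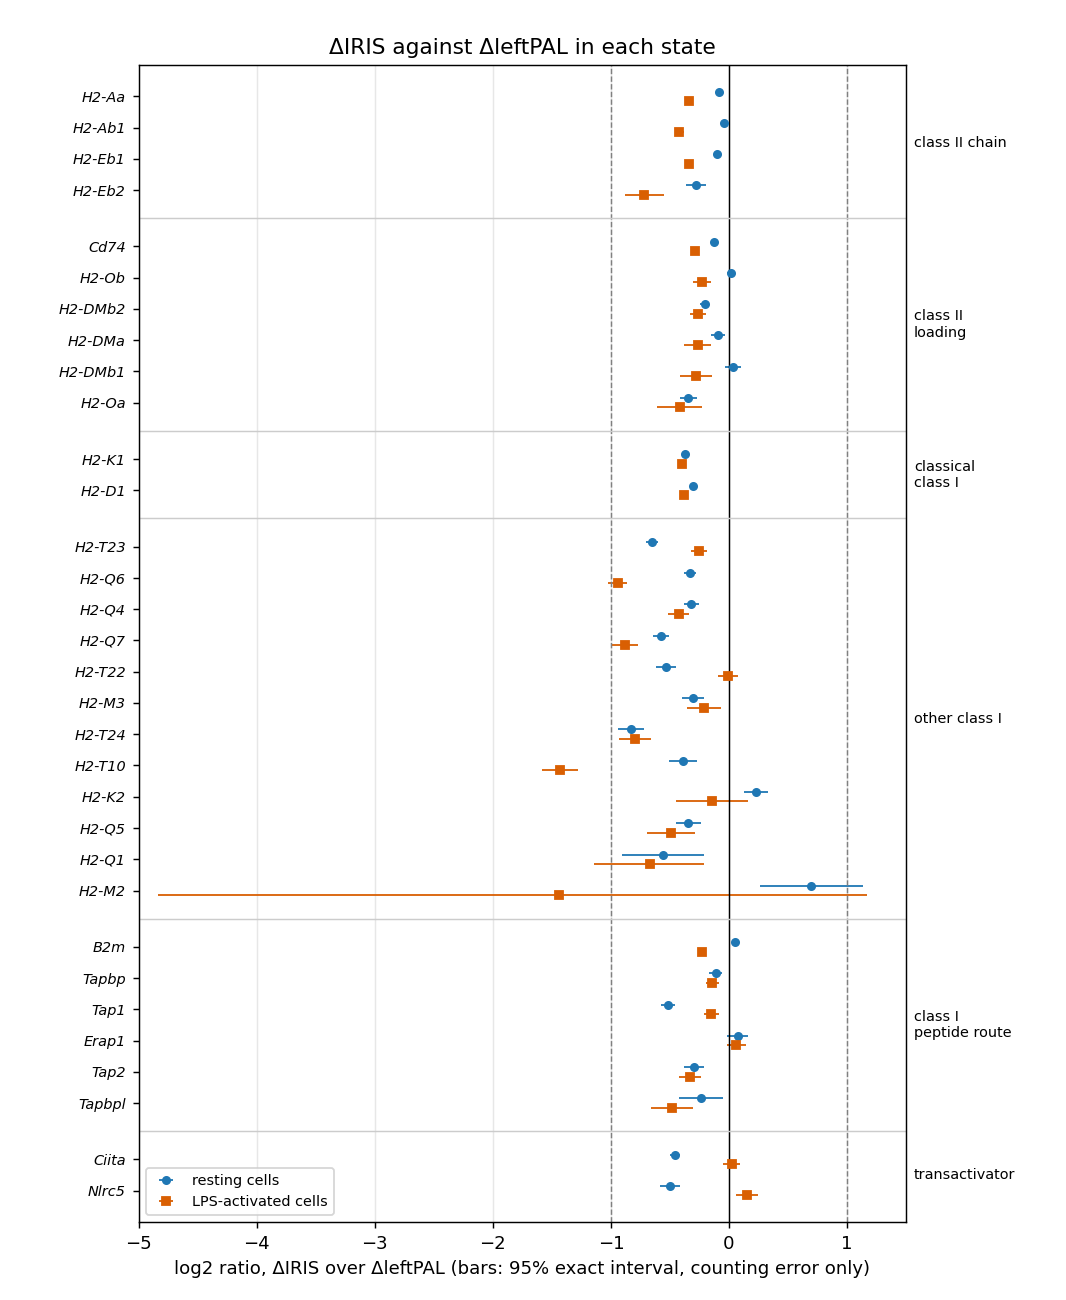
Log2 ratio of ΔIRIS over ΔleftPAL for the 32 members in resting (circles) and LPS-activated cells (squares), with 95% exact intervals for counting error and dashed lines at 2-fold. Most points lie between 0 and -1, the class II genes lie further from 0 after LPS than at rest, and H2-T10 after LPS lies at -1.43.

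H2-T10 (ENSMUSG00000079491, chr17:36115876-36121465), annotated as a polymorphic pseudogene and a close copy of H2-T22, was the 1 member called between genotypes. H2-T10 had 50.4 CPM at rest and 45.6 after LPS in ΔleftPAL cells, and 38.5 and 16.9 in ΔIRIS cells, so that the LPS ΔIRIS library was below the other 3. On LPS it was 1.10-fold lower in ΔleftPAL and, as a call, 2.28-fold lower in ΔIRIS cells, and that call ended with a prior of 5 CPM (-0.9917). The log2 ratio after LPS was -1.43 (interval -1.59 to -1.28), or 2.70-fold lower in ΔIRIS cells. In the transcript table, ENSMUST00000166442 of this gene had 551 estimated counts in LPS-activated ΔleftPAL cells, 49.3% of the gene's total, and was listed at 0 in the other 3 libraries. The other 2 transcripts had 236 and 332 estimated counts in LPS-activated ΔleftPAL and 102 and 369 in LPS-activated ΔIRIS cells. These are estimates of how reads divide among overlapping transcripts, and the assignment of reads among the close copies of H2-T10 is uncertain. H2-M2, at 5 and 2 counts after LPS, had a log2 ratio of -1.44 whose interval of -4.84 to 1.17 held 0, and it was not called.

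The remaining 18 members did not pass the minimum and were not compared. Among them 8 were listed at 0 in every library, of which H2-Q3 was the only gene outside the M region. The highest gene count was 32, for H2-Q10, which encodes a secreted class I chain of liver. H2-Ke6, which is Hsd17b8 by another name, a dehydrogenase gene that lies in the MHC but presents no antigen, had 9 counts or fewer per library. Both genes were higher in the transcript table. There H2-Q10 had 484 and 145 estimated counts in ΔleftPAL and 539 and 99.5 in ΔIRIS cells, and H2-Ke6 had 774 and 385, then 798 and 353, so their low gene counts do not show that they were hardly expressed. Gene counts and kallisto estimated counts were within 15% of each other for 28 of the 32 members past the minimum, the exceptions being H2-K2, H2-Q1, H2-Q5 and H2-Q7.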

How the data were processed

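Total RNA of CD43-depleted splenocytes was depleted of ribosomal RNA and sequenced in paired reads of 150 nt from stranded libraries. The authors mapped reads with STAR 2.4.0a to mm10 (GRCm38) with the Ensembl gene model and deposited raw counts per gene name from featureCounts (Subread 1.4.6-p1, counting multi-mapped fragments at the primary alignment). They also deposited kallisto 0.42.3 estimated counts and TPM per transcript. TPM is scaled to one sum per library, and its index is not given in the sources used here. Versions are from the submitters' processing notes and the methods. The row without a gene name (0.00876 to 0.0264% of counts) was left out, and 0 per-sample columns were unused.

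Counts were scaled with TMM factors of edgeR 4.0.16 (R 4.3.3), and ratios and intervals were computed in Python 3.11.15 (pandas 2.3.3, numpy 2.4.6, scipy 1.17.1). With 1 library per group no test was run and no p-value was computed. Genes averaging 50 counts or more per library were compared on log2(CPM + 0.5), and at least 2-fold was called. Values in every library are given for members past the minimum that were among the 6 most abundant of their role or called in any of the 4 comparisons. The members and the lists of pathway and marker genes were chosen with earlier results of these data known. The values of 1 listed regulator are not reported here. Tried in their place were size factors of DESeq2 1.42.0, total counts, TMM without immunoglobulin genes, kallisto estimated counts (not rounded), kallisto TPM, a prior of 5 CPM, and minimum means of 10, 200 or none. Depth was 23615496 to 29776108 counts per library, and PCR copies are not independent molecules, so intervals cover counting error only. The scripts were tested on simulated data.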

Additional observations from a re-analysis of the deposited data

Results flagged for a closer look

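Between the 2 genotypes, 3 members moved in opposite directions on LPS, and the difference was not tested for any of them. For Tap1 the log2 ratio of LPS over resting was -0.24 in ΔleftPAL and 0.12 in ΔIRIS cells, a difference of 0.3667. For H2-T22 it was -0.44 and 0.09, a difference of 0.5292. For Tapbpl it was 0.13 and -0.12, a difference of -0.2466, and the intervals of both ratios held 0. With kallisto TPM, Tap1 was at -0.51 and -0.18, H2-T22 at -0.68 and -0.13 and Tapbpl at -0.25 and -0.31, so that none of these 3 moved in opposite directions in that table.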

How the results depend on the processing

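The number of members at least 2-fold higher was 0 in each of the 4 comparisons under all 9 alternatives. The number at least 2-fold lower on LPS was 20 as reported in both genotypes, 16 to 22 in ΔleftPAL and 18 to 21 in ΔIRIS cells over the alternatives. Between genotypes it stayed 0 at rest and 1 after LPS. No member changed sign in a comparison in which it was called, under any of the 6 scalings, tables and priors tried for single members. The log2 ratio left its counting interval in 2 of 128 cases with TMM without immunoglobulin genes, 11 with DESeq2 size factors, 22 with a prior of 5 CPM, 36 with total counts, 76 with kallisto estimated counts and 83 with kallisto TPM. The median of all genes shifted by more than 0.1 with kallisto TPM (-0.31 in both LPS comparisons), with kallisto estimated counts in ΔIRIS LPS (0.11) and with no minimum (-0.12 and -0.13). Signs on LPS turned for Tapbp, Erap1, Tap1, Tapbpl, H2-T22 and Nlrc5 in at least 1 genotype, and signs between genotypes for H2-Ob and H2-DMb1 at rest and for H2-T22, H2-M3 and Ciita after LPS. No paired analysis was possible because each group holds 1 library. Depth limited H2-M2 and H2-Q1, whose LPS intervals spanned more than any other member's.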
